A study of Mus musculus with 12 samples.

Results

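The regeneration-associated effector genes described here are 10 in number: Gap43, Sprr1a, Basp1, Plaur, Flrt3, Anxa1, Hspb1, Gadd45a, Socs3 and Csrp3. They were chosen by name, as genes long tied to axon growth after nerve injury, and found in the deposited tables by their Ensembl identifiers. Of these 10 genes, 9 were listed among the 13178 genes of the adeno-associated virus (AAV) experiment, and all 10 among the 21650 genes of the ribose experiment. Csrp3 was the member not listed in the AAV experiment and was not analysed there. All 13178 genes listed there averaged at least 1 FPKM, the lowest 1.0004, so genes below that level were absent. Whether Csrp3 was absent for this reason cannot be read.

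The libraries came from neurons of the L4-6 dorsal root ganglia, the sensory ganglia that feed the sciatic nerve, in 8-week C57BL/6J mice. All ganglia were taken 72 h after a spinal cord injury (SCI). In the AAV experiment, the sciatic nerve had been injected with virus 4 weeks before. AAV-GFP mice had a virus for a fluorescent protein, and AAV-TKT mice one for transketolase, an enzyme of the pentose phosphate pathway. In the ribose experiment, injured mice received vehicle (Vehicle) or 10% ribose (Ribose), a pentose sugar that can enter that pathway. There were 3 libraries in each of 4 groups. The sources used here do not give the promoter of the virus, the cells it entered or the route of the ribose. No uninjured ganglia were among the samples, so whether any of these genes was induced by the injury cannot be read from them.

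A sensory neuron whose axon is cut can switch on a growth programme, in which transcription factors such as Atf3, Jun and Stat3 turn on effector genes. The effectors build the growth cone (Gap43, Basp1, Sprr1a), act at the cell surface (Plaur, Flrt3), bind membranes (Anxa1), protect from stress (Hspb1, Gadd45a), limit cytokine signalling (Socs3) or bind the cytoskeleton (Csrp3). The programme is well known for injury of the peripheral axon branch and much weaker after injury of the central branch in the spinal cord, which is the injury used here.

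The promoters of 3 members that hold letters of known control elements are shown first. Those of Socs3 and Csrp3 also held such letters and are not shown. Among the members in the AAV experiment, Plaur had the smallest p, Sprr1a the widest spread and Hspb1 was the one higher in every AAV-TKT library. Flrt3 and Anxa1 had a smaller p than Hspb1 there and held none of these letters. Each is the stretch of 250 bases before the RefSeq start of the gene (GRCm38.p6), written 5′ to 3′ on the strand of the gene. Capitals in Sprr1a (chr3:92485882-92486131, minus strand) and Plaur (chr7:24462233-24462482, plus strand) mark TGANTCA, the letters bound by AP-1, the family of Jun. Capitals in Hspb1 (chr5:135887669-135887918, plus strand) mark GAANNTTC, the core of the heat shock element.
Sprr1a: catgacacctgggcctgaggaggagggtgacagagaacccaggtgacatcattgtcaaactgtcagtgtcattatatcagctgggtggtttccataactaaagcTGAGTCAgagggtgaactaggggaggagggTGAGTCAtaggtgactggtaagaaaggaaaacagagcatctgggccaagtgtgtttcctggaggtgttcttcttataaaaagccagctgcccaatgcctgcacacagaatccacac
Plaur: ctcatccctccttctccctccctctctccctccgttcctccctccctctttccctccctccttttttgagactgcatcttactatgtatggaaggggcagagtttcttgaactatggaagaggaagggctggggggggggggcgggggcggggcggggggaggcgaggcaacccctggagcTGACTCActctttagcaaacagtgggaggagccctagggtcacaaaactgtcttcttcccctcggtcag
Hspb1: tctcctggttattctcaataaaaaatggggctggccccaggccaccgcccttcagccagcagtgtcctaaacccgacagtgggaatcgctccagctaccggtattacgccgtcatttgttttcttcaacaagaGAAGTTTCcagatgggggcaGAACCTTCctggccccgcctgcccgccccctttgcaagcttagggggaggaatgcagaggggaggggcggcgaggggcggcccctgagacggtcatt
In Sprr1a the motif began 146 and 116 bases before the start, and in Plaur 69 bases before it. In Hspb1 the 2 matches began 117 and 97 bases before the start. Both strands were searched in all 32851 RefSeq windows, and each of these 3 promoters held matches to 1 motif only, so no matches of different motifs overlapped. TGANTCA was held by 6.75% of all windows of this length and by 2 of the 9 members with a window, Plaur and Sprr1a. GAANNTTC was held by 6.69% of all windows and by Csrp3 and Hspb1 among the members. TTCNNNGAA, the letters bound by STAT factors, was held by 7.02% of windows and by Socs3, and the cyclic AMP element TGACGTCA by 1.55% of windows and no member. A match is a description of letters and not a bound site.

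Values are FPKM, fragment counts scaled by transcript length and library size, so levels can be compared between genes. Library totals were 413635 to 456084 FPKM in the AAV experiment and 510551 to 551370 FPKM in the ribose experiment. The AAV table holds too few low values to read its depth. Low values of the ribose table put the 3 Vehicle libraries at 1, 1.26 and 1.34 on a scale of relative depth, and the 3 Ribose libraries at 0.752, 0.909 and 0.869. Tkt, the gene carried by the virus, measured 106, 101.7 and 98.1 FPKM in AAV-GFP and 223, 259 and 262 FPKM in AAV-TKT (limma adjusted p = 0.0054). Sensory neuron markers were high in every library, with summed levels of 5413 to 6083 FPKM in AAV-GFP and 6287 to 7051 FPKM in AAV-TKT, where 4 of 10 markers lay higher in every AAV-TKT library. With ribose they overlapped, at 6171 to 6748 FPKM in Vehicle and 5836 to 6465 FPKM in Ribose. The libraries also held blood and glial transcripts. The summed neutrophil markers were 107 to 281 FPKM in AAV-GFP and 22.3 to 34.8 FPKM in AAV-TKT, and all 11 listed markers of 12 lay lower in every AAV-TKT library (Ly6g was not listed). Red-cell markers summed to 146 to 509 FPKM in AAV-GFP and 103.2 to 130 FPKM in AAV-TKT, and macrophage markers to 37.5 to 50.0 FPKM and 13.8 to 19.7 FPKM, with 6 of 7 and 5 of 7 listed markers lower in every AAV-TKT library. Schwann cell markers summed to 429 to 447 FPKM in AAV-GFP and 352 to 387 FPKM in AAV-TKT, and fibroblast markers to 529 to 633 FPKM and 630 to 739 FPKM. No endothelial marker was listed in the AAV experiment, where every gene listed averaged at least 1 FPKM. In the ribose experiment neutrophil markers overlapped between groups, at 32.9 to 184 FPKM in Vehicle and 12.8 to 127 FPKM in Ribose, as did the red-cell (107 to 228 and 33.8 to 261 FPKM), macrophage (15.5 to 38.0 and 6.02 to 38.2 FPKM), fibroblast (379 to 665 and 444 to 590 FPKM) and endothelial sums (5.54 to 10.1 and 2.68 to 12.8 FPKM). Schwann cell sums there were 546 to 618 FPKM in Vehicle and 412 to 505 FPKM in Ribose. In such bulk libraries, fewer cells of a type and less RNA per cell cannot be told apart.

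With transketolase, Anxa1, Plaur and Flrt3 were lower and Hspb1 was higher, with no AAV-TKT library inside the AAV-GFP range, and no member passed the test over all genes. Anxa1, a membrane-binding protein, stood at 0.225 times its AAV-GFP mean, Plaur, the urokinase receptor, at 0.515 times and Flrt3, an adhesion protein, at 0.692 times. Hspb1, a small heat shock protein, stood at 1.27 times its AAV-GFP mean. With ribose, all 9 tested members had a negative difference, from -0.02 to -0.79 on the log2 scale, and the groups overlapped for every one. The median of all genes was also negative, at -0.02, and the share of negative genes was not computed. Only Sprr1a and Gadd45a kept this sign under every alternative run.

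The test was limma on log2(FPKM + 1), with Benjamini-Hochberg adjustment over all genes that averaged 1 FPKM or more in the experiment. This filter removed no gene of the AAV experiment. A difference on this scale understates the change of genes with low FPKM. In the AAV experiment 0 of 9 members passed an adjusted p of 0.05, where 0.0152% of all 13178 genes did (2 genes), while 5 of 9 members and 10.6% of genes (1395) had an unadjusted p under 0.05. All AAV-TKT libraries lay below all AAV-GFP libraries for 3 of 9 members, and for 7.2% of all genes. The opposite order held for 1 of 9 members and for 11.3% of all genes. The median difference of the members was -0.39, beside 0.01 over all genes tested, with 6 negative and 3 positive values.
In the ribose experiment 0 of 9 members passed, where 0.00724% of 13804 genes did (1 gene), and 0 members and 4.79% of genes (661) had an unadjusted p under 0.05. None of the 9 members lay below the controls in every treated library, beside 5.35% of all genes, and none above, beside 4.28%. The members' median difference was -0.12, and that of all genes -0.02. The labels do not say whether the 3 replicates in a group are different animals, so the p-values measure the spread between these samples, which may be technical.

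**Figure D1:**
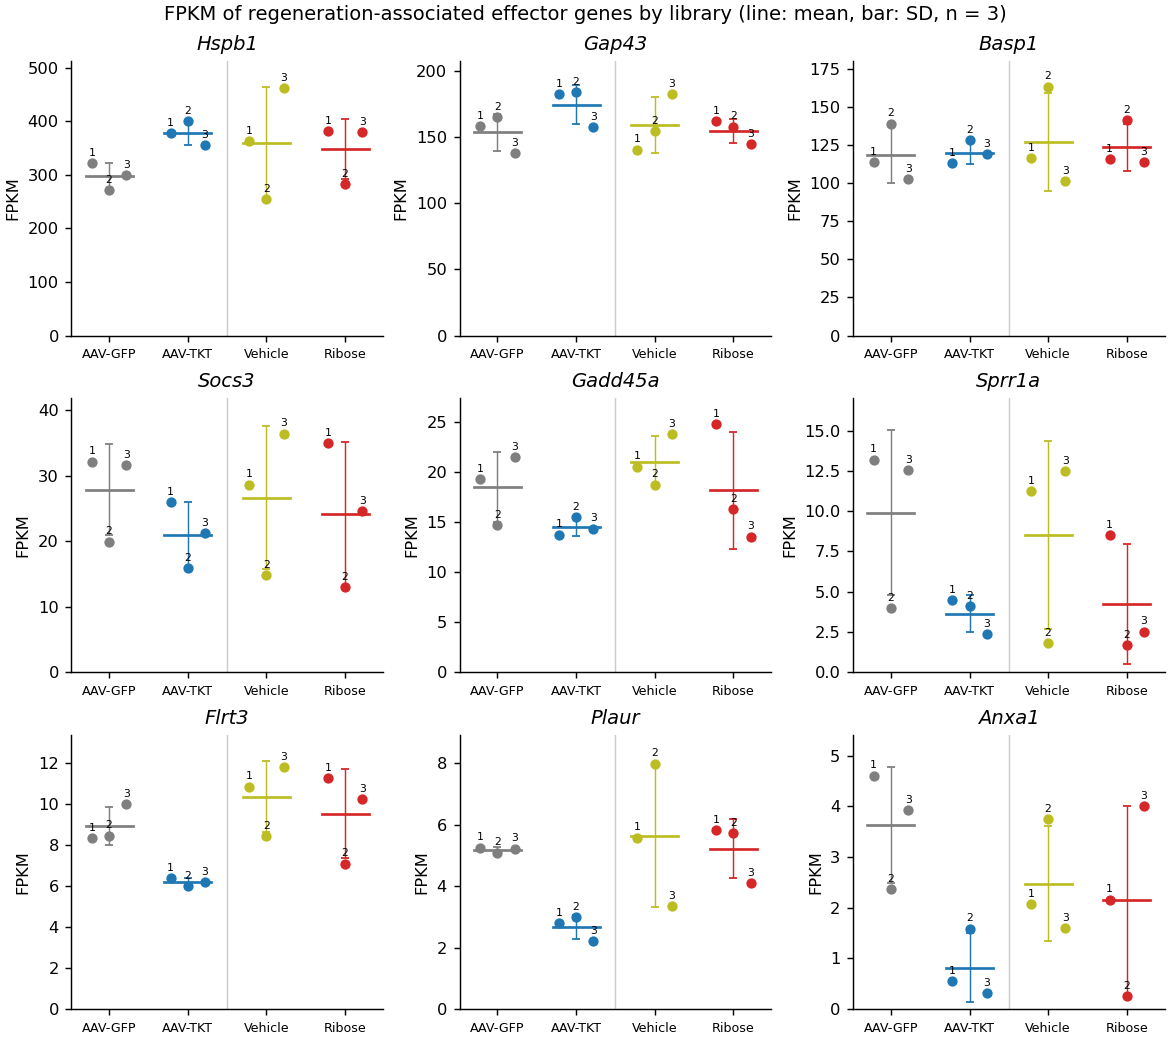
FPKM of the 9 members listed in both experiments (vertical axes, linear and starting at 0) in each library of the 4 groups, numbered by replicate, with the mean as a line and the SD (n = 3) as a bar. The AAV-GFP and AAV-TKT libraries do not overlap for Flrt3, Plaur, Anxa1 and Hspb1, and Vehicle and Ribose overlap in every panel.

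**Figure D2:**
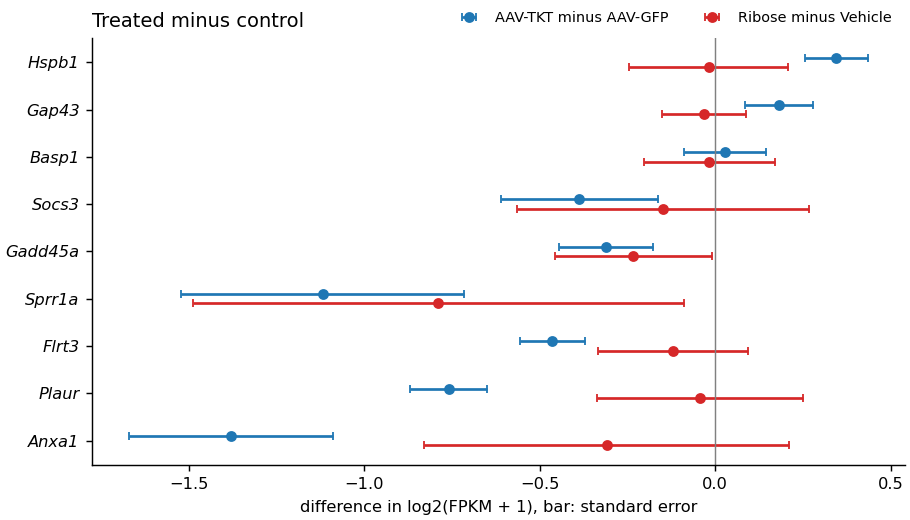
Difference in log2(FPKM + 1) between treated and control libraries for the same 9 genes, as points with the standard error from limma as bars, in blue for AAV-TKT minus AAV-GFP and in red for Ribose minus Vehicle. Blue points run from -1.38 for Anxa1 to 0.34 for Hspb1, and red points lie between -0.79 for Sprr1a and -0.02.

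Gap43, Basp1 and Sprr1a are the growth cone members. Gap43 (ENSMUSG00000047261, chromosome 16, 42248442 to 42340651, minus strand, GRCm38) encodes a membrane-anchored substrate of protein kinase C that binds calmodulin and is a classic label of growing axons. It measured 159, 165 and 138 FPKM in AAV-GFP replicates 1 to 3 and 183, 184 and 157 FPKM in AAV-TKT. Replicate 3 was the lowest library of both groups, and the groups overlapped. The difference was 0.18 (SE 0.098, limma adjusted p = 0.521). With ribose, Gap43 measured 141, 154 and 182 FPKM in Vehicle and 162, 158 and 145 FPKM in Ribose, a difference of -0.03 (SE 0.120). The 3 Ribose libraries lay inside the Vehicle range.

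Basp1 (ENSMUSG00000045763, chromosome 15, 25363277 to 25413764, minus strand) encodes a relative of Gap43 in function, anchored to the inner membrane by a lipid. It measured 114, 139 and 102.5 FPKM in AAV-GFP and 113, 128 and 119 FPKM in AAV-TKT, and the means of 118 ± 18.7 and 120 ± 7.76 FPKM (SD, n = 3) differed by less than either spread (difference 0.03, SE 0.117). With ribose it measured 116, 163 and 101.03 FPKM in Vehicle and 116, 141 and 114 FPKM in Ribose (difference -0.02, SE 0.187). Replicate 2 was its highest library in all 4 groups, an order shared by 5.53% of the 12853 genes tested in both experiments.

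Sprr1a (ENSMUSG00000050359, chromosome 3, 92483952 to 92485895, minus strand) encodes a small proline-rich protein of the skin barrier that injured sensory neurons make in large amounts. It measured 13.2, 4.00 and 12.6 FPKM in AAV-GFP and 4.46, 4.12 and 2.36 FPKM in AAV-TKT. AAV-GFP replicate 2 lay among the AAV-TKT libraries, and the other AAV-GFP libraries lay well above them. The difference was -1.12 (SE 0.403, unadjusted p = 0.026, limma adjusted p = 0.425), and -1.61 without AAV-GFP replicate 2. For ribose, Sprr1a measured 11.2, 1.80 and 12.5 FPKM in Vehicle and 8.53, 1.68 and 2.52 FPKM in Ribose. Vehicle replicate 2 again stood far below its group, and the difference of -0.79 had a standard error of 0.700. Keratinocyte markers, of a cell type in which this gene is abundant, summed to 7.17 to 8.65 FPKM in AAV-GFP and 7.27 to 8.89 FPKM in AAV-TKT. Only 3 of 7 were listed there (Krt10, Perp and Sfn), and Krt5, Krt14, Krt1 and Dsp were not. With all 7 listed, they summed to 10.5 to 10.8 FPKM in Vehicle and 10.8 to 14.6 FPKM in Ribose.

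Among 12 measured membrane and adhesion partners of Gap43 and Basp1, none passed the test in either direction in the AAV experiment, and 8 were negative, with a median of -0.02. Marcksl1 and Marcks, other membrane-bound substrates of protein kinase C, had the smallest p. Marcksl1 measured 4.18, 4.34 and 4.46 FPKM in AAV-GFP and 3.19, 3.20 and 3.63 FPKM in AAV-TKT (difference -0.30, limma adjusted p = 0.389), with no overlap. In this list 2 of 12 genes lay lower in every AAV-TKT library and 2 higher, beside 7.2% and 11.3% of all genes. Marcks differed by -0.20 (SE 0.076) in the AAV experiment and by -0.22 (SE 0.166) with ribose. With ribose, 10 of 12 of these partners were negative, with a median of -0.06 beside -0.02 over all genes, and none passed. The adhesion molecule Ncam1 had the smallest p there, with a difference of -0.27 (SE 0.130).

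Plaur and Flrt3 act at the cell surface. Plaur (ENSMUSG00000046223, chromosome 7, 24462484 to 24475968, plus strand) encodes the receptor that holds urokinase, a protease that activates plasminogen, on the membrane. It measured 5.26, 5.09 and 5.22 FPKM in AAV-GFP and 2.80, 3.00 and 2.22 FPKM in AAV-TKT. The AAV-GFP libraries lay close together, and every AAV-TKT library stood well below them. The means were 5.19 ± 0.0882 and 2.67 ± 0.406 FPKM (SD, n = 3), and the difference of -0.76 (SE 0.110, unadjusted p = 0.000182) had the smallest adjusted p of the members (limma, 0.162). With weights per library estimated by limma the difference was -0.87 and passed, at an adjusted p of 0.0334. Under that setting 23 genes passed, beside 2 without weights, and Plaur passed under no other alternative run. Plaur in the ribose experiment measured 5.58, 7.99 and 3.35 FPKM in Vehicle and 5.83, 5.73 and 4.11 FPKM in Ribose, and the Ribose libraries lay within the Vehicle range (difference -0.04, SE 0.294). Macrophages and neutrophils also make this receptor. Its lower level in AAV-TKT stood beside their lower marker sums given above, and their part in the result was not tested.

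All 6 measured genes of the urokinase system were negative in the AAV experiment, with a median of -0.26 beside 0.01 over all genes, and none passed. Mmp9, a protease that neutrophils carry in granules, measured 1.90, 1.07 and 2.73 FPKM in AAV-GFP and 0.331, 0.346 and 0.511 FPKM in AAV-TKT (difference -1.02, limma adjusted p = 0.347). Plgrkt, a plasminogen receptor, differed by -0.31 (SE 0.124), and the libraries of both groups were apart for each of these 2 genes. They were named for the smallest p of the list. Of its 6 genes, 3 lay lower in every AAV-TKT library and 0 higher, beside 7.2% and 11.3% of all genes. With ribose, 3 of 7 were positive and none passed. Lrp1 had the smallest p there, with a difference of 0.42 (SE 0.219). Serpine2, a secreted inhibitor of urokinase and thrombin that glia make, stood at 3.29 FPKM in Ribose replicate 2 against 15.0 to 36.3 FPKM in the other libraries of the experiment, and differed by -1.01 (SE 0.688).

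Flrt3 (ENSMUSG00000051379, chromosome 2, 140650914 to 140671469, minus strand) encodes a leucine-rich repeat membrane protein that binds latrophilins (Adgrl genes) and Unc5 receptors. It lies within Macrod2, which runs on the opposite strand. The libraries were directional, but the sources used here do not give the strand setting of the counting, so reads of Macrod2 there may be counted in Flrt3. Flrt3 measured 8.32, 8.45 and 10.0 FPKM in AAV-GFP and 6.38, 5.97 and 6.16 FPKM in AAV-TKT. Every AAV-TKT library was lower, and their spread was small. The difference was -0.46 (SE 0.092, limma adjusted p = 0.324). With ribose it measured 10.8, 8.43 and 11.8 FPKM in Vehicle and 11.2, 7.08 and 10.2 FPKM in Ribose (difference -0.12, SE 0.213), and replicate 2 was the lowest of both groups. Of 11 measured Flrt3 partners and relatives, none passed in the AAV experiment, with 6 positive and a median of 0.12. The latrophilin Adgrl3 was lower in every AAV-TKT library (-0.24, SE 0.065) and the latrophilin Adgrl1 higher (0.21, SE 0.072). Of the 11 genes, 3 lay higher in every AAV-TKT library and 1 lower, beside 11.3% and 7.2% of all genes. With ribose none of 12 passed. Adgrl3 was again lower in every treated library (-0.22, SE 0.135), and Flrt1, a relative of Flrt3, was higher in every one (0.32, SE 0.166). In that list of 12, 1 gene lay lower in this way and 1 higher, beside 5.35% and 4.28% of all genes.

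Anxa1 (ENSMUSG00000024659, chromosome 19, 20373428 to 20390944, minus strand) encodes annexin A1, a calcium-dependent phospholipid-binding protein that is abundant in neutrophils and macrophages and also made by injured neurons. It overlaps 1500015L24Rik on the opposite strand, with the same limit on strand as Flrt3. It measured 4.61, 2.36 and 3.93 FPKM in AAV-GFP and 0.556, 1.59 and 0.310 FPKM in AAV-TKT. Replicate 2 was the lowest AAV-GFP library and the highest AAV-TKT library, and the groups did not overlap. The difference of -1.38 (SE 0.291, unadjusted p = 0.0018, limma adjusted p = 0.333) was the most negative of the members. Without both libraries numbered 2 it was -1.88 and passed, at a limma adjusted p of 0.0446. That omission was added after the data were seen. It takes out the lowest AAV-GFP and the highest AAV-TKT library, so it could only widen the difference, and 36 genes passed under it. Under ribose and its control, Anxa1 measured 2.06, 3.76 and 1.60 FPKM in Vehicle and 2.16, 0.259 and 4.01 FPKM in Ribose. The difference was -0.31 (SE 0.520), and its sign turned without Ribose replicate 2, to 0.24.

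Of 11 other annexins and annexin partners, none passed in the AAV experiment, 6 were positive and the median was 0.01. Anxa3, an annexin of granulocytes, measured 1.54, 1.00 and 1.95 FPKM in AAV-GFP and 0.382, 0.786 and 0.560 FPKM in AAV-TKT, and S100a4, a calcium-binding protein of motile and myeloid cells, differed by -0.45 (SE 0.221). With ribose 8 of 11 were negative with a median of -0.11 and none passed. S100a4 there ranged from 0.131 FPKM in Ribose replicate 3 to 10.8 FPKM in Vehicle replicate 3, and the difference was -1.25 (SE 0.661). Anxa4 differed by -0.41 (SE 0.231) with ribose.

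Hspb1 and Gadd45a belong to stress responses. Hspb1 (ENSMUSG00000004951, chromosome 5, 135887919 to 135889563, plus strand) encodes the small heat shock protein that keeps other proteins soluble and guards neurons against death. It measured 321, 271 and 300 FPKM in AAV-GFP and 378, 399 and 355 FPKM in AAV-TKT. All AAV-TKT libraries lay above all AAV-GFP libraries, with means of 298 ± 25.0 and 378 ± 22.1 FPKM (SD, n = 3). The difference was 0.34 (SE 0.090, unadjusted p = 0.0058, limma adjusted p = 0.378). The summed sensory neuron markers were also higher in every AAV-TKT library, and their part in the result was not tested. With ribose Hspb1 measured 362, 254 and 462 FPKM in Vehicle and 382, 282 and 379 FPKM in Ribose, with replicate 2 the lowest of both groups and a difference of -0.02 (SE 0.227).

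Small heat shock proteins and their partners included 5 of 6 positive genes in the AAV experiment, with a median of 0.03 and none past the test. Hspb6, another small heat shock protein, measured 4.85, 4.89 and 3.77 FPKM in AAV-GFP and 5.97, 6.09 and 5.98 FPKM in AAV-TKT. Bag3, a partner of small heat shock proteins in clearing misfolded protein, measured 111, 109 and 108 FPKM in AAV-GFP and 124, 132 and 116 FPKM in AAV-TKT. Both lay higher in every AAV-TKT library, with differences of 0.36 (SE 0.107) and 0.18 (SE 0.071). They were named for the smallest p of the list, in which 2 of 6 genes lay apart in this way, beside 11.3% of all genes. With ribose 6 of 8 were negative and none passed. Hsf1, the heat shock transcription factor, was lower in every Ribose library (-0.31, SE 0.151), and the crystallin Cryaa, at 0.0852 to 3.10 FPKM, differed by 1.05 (SE 0.409). Of these 8 genes, 1 lay lower in every Ribose library and 0 higher, beside 5.35% and 4.28% of all genes.

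Gadd45a (ENSMUSG00000036390, chromosome 6, 67035096 to 67037457, minus strand) encodes a p53-induced protein of growth arrest and DNA repair, which injured sensory neurons also make. It overlaps E230016M11Rik on the opposite strand. It measured 19.3, 14.6 and 21.5 FPKM in AAV-GFP and 13.7, 15.5 and 14.3 FPKM in AAV-TKT. AAV-GFP replicate 2 lay among the tightly grouped AAV-TKT libraries, and the other AAV-GFP libraries were higher. The difference was -0.31 (SE 0.134, limma adjusted p = 0.472). With ribose Gadd45a measured 20.5, 18.7 and 23.7 FPKM in Vehicle and 24.7, 16.3 and 13.5 FPKM in Ribose (difference -0.23, SE 0.223), with Ribose replicate 1 the highest of all 6. Of 9 genes of the GADD45 family and the p53 arm, none passed in either experiment, with medians of -0.01 and 0.09. Gadd45b, a close relative, was higher in every AAV-TKT library (0.27, SE 0.089). Cdkn1a, a p53 target that halts the cell cycle, differed by -0.22 (SE 0.109) in the AAV experiment and by -0.18 (SE 0.131) with ribose. Gadd45gip1 was higher in every Ribose library (0.28, SE 0.170). In the AAV experiment 1 of the 9 lay higher in every treated library and 1 lower, beside 11.3% and 7.2% of all genes. With ribose 2 of the 9 lay higher in every treated library and 0 lower, beside 4.28% and 5.35%.

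Socs3 (ENSMUSG00000053113, chromosome 11, 117966079 to 117970047, minus strand) encodes a suppressor of cytokine signalling that shuts off the JAK-STAT pathway and is a known brake on axon regrowth. It measured 32.2, 19.9 and 31.6 FPKM in AAV-GFP and 25.9, 15.9 and 21.2 FPKM in AAV-TKT. The groups overlapped, and replicate 2 was the lowest in each. The difference was -0.39 (SE 0.223, limma adjusted p = 0.547). With ribose it measured 28.6, 14.8 and 36.4 FPKM in Vehicle and 35.0, 13.0 and 24.6 FPKM in Ribose (difference -0.15, SE 0.416), where replicate 2 was again the lowest of both groups. Of 17 measured genes of the cytokine to STAT arm, none passed in the AAV experiment, 10 were negative and the median was -0.06. Socs6 and Socs2, relatives of Socs3, were lower in every AAV-TKT library, each with a difference of -0.32 (SE 0.104 and 0.119). They had the smallest p of the list. Of its 17 genes, 3 lay lower in every AAV-TKT library and 1 higher, beside 7.2% and 11.3% of all genes. With ribose none of 18 passed and the median was -0.02. Cntfr, the receptor of ciliary neurotrophic factor, differed by -0.39 (SE 0.224), and Cish, another suppressor of cytokine signalling, by 0.62 (SE 0.361).

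Csrp3 (ENSMUSG00000030470, chromosome 7, 48830398 to 48848033, minus strand) encodes muscle LIM protein, which bundles actin and is made by striated muscle and by some injured sensory neurons. It was listed at 0 in 4 of 6 ribose libraries, at 0.232 FPKM in Vehicle replicate 3 and at 0.272 FPKM in Ribose replicate 1. Neither group had it above 0 in more than 1 library, and no test was made at this level. Skeletal muscle markers, 8 of 10 listed, summed to 11.3, 4.55 and 4.20 FPKM in Vehicle and to 16.4, 12.5 and 26.5 FPKM in Ribose, and the library with the highest sum, Ribose replicate 3, had Csrp3 at 0. Of 10 other kin of Csrp3 and Sprr1a, only 2 were tested in the AAV experiment, Csrp1 and Csrp2, and 3 with ribose. None passed in either experiment. No relative of Sprr1a was tested in the AAV experiment. Csrp1, a related LIM protein of smooth muscle and many other cells, measured 26.5 to 32.6 FPKM in AAV-GFP and 27.0 to 33.8 FPKM in AAV-TKT, and Csrp2 differed by 0.01 (SE 0.188) in the AAV experiment. The differences of both were so near 0 that their sign turned with equal totals, to -0.03 and -0.05. With ribose Tgm2 differed by 0.40 (SE 0.290) and Csrp1 by -0.23 (SE 0.226).

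Among themselves the members spanned a wide range of levels. In AAV-GFP, Hspb1 stood highest at 298 FPKM, and Gap43 and Basp1 followed, at 154 and 118 FPKM with overlapping libraries. Socs3 and Gadd45a came next, overlapping at 27.9 and 18.5 FPKM, then Sprr1a and Flrt3, overlapping at 9.92 and 8.92 FPKM, and then Plaur and Anxa1, apart from each other at 5.19 and 3.63 FPKM. Vehicle gave the same broad order within its own table, where Flrt3, Sprr1a, Plaur and Anxa1 each overlapped with the next, and Csrp3 was lowest. Hspb1, Gap43 and Basp1 ranked above 99.1%, 97.3% and 95.7% of the genes tested in the AAV experiment by mean level, and Anxa1 above 14.2%. The spread between libraries of a group also differed. In the AAV experiment the within-group SD of log2(FPKM + 1) was 0.66 for Sprr1a, 0.45 for Anxa1 and 0.36 for Socs3, above that of 98.0%, 96.2% and 93.7% of genes, whereas those of Flrt3 and Hspb1 were 0.10 each, above 31.3% and 35.7% of genes. With ribose the same 3 genes spread most, with SDs of 1.13, 0.78 and 0.67.

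Whether the members followed blood-cell genes was asked within groups, with a limma fit of group and the log2 level of 1 blood gene per library, which leaves 3 residual degrees of freedom. Ngp, a granule protein of maturing neutrophils, measured 43.3, 30.5 and 64.8 FPKM in AAV-GFP and 5.55, 8.40 and 5.26 FPKM in AAV-TKT. Hba-a2, an alpha globin of red cells, measured 146, 48.3 and 182 FPKM in AAV-GFP and 33.1, 28.5 and 37.5 FPKM in AAV-TKT. Its near-identical copy Hba-a1 may share its reads. AAV-TKT libraries were lower for both genes. With ribose, Ngp measured 7.82, 44.1 and 6.49 FPKM in Vehicle and 28.8, 1.93 and 17.1 FPKM in Ribose, and Hba-a2 measured 35.7, 90.7 and 31.0 FPKM and 87.9, 5.16 and 65.4 FPKM. Blood genes there were highest in Vehicle replicate 2 and lowest in Ribose replicate 2, and differed more within groups than between them.

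Anxa1 was the member whose slope on Ngp was positive in both experiments with an unadjusted p under 0.05. The slope was 0.79 (SE 0.307, unadjusted p = 0.040, limma adjusted p = 0.9995) in the AAV experiment and 0.42 (SE 0.136, unadjusted p = 0.019, adjusted p = 0.9999) with ribose. Its lowest library was the lowest Ngp library in 4 of 4 groups, which held for 63 of 12843 genes (0.491%), while its full order of libraries matched that of Ngp in 2 of 4 groups, as for 9.93% of genes. On Hba-a2 the slope was 0.25 (SE 0.245) in the AAV experiment, which turned to -1.80 without AAV-GFP replicate 2, and 0.45 (SE 0.118, unadjusted p = 0.0079, limma adjusted p = 0.9998) with ribose. Leaving out single libraries kept the slope on Ngp between 0.51 and 1.54 in the AAV experiment and between 0.24 and 0.51 with ribose.

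Sprr1a and Gadd45a had positive slopes on both blood genes in the AAV experiment, each with an unadjusted p under 0.05, and small slopes with ribose. Whether the slopes differed between the experiments was not tested. The slope of Sprr1a on Ngp was 1.12 (SE 0.412, unadjusted p = 0.033, limma adjusted p = 0.9995) in the AAV experiment and -0.09 (SE 0.285) with ribose. It was 0.27 without AAV-GFP replicate 2, the library low in Sprr1a, Ngp and Hba-a2 alike, and its slope on Hba-a2 turned from 0.74 (SE 0.217) to -1.0. Vehicle replicate 2, by contrast, had the highest Ngp and the lowest Sprr1a of its group. Gadd45a had slopes of 0.42 (SE 0.116, unadjusted p = 0.010, limma adjusted p = 0.9995) on Ngp and 0.24 (SE 0.070) on Hba-a2 in the AAV experiment, and of 0.02 (SE 0.093) and 0.03 (SE 0.092) with ribose. Its slope on Hba-a2 in the AAV experiment was 0.01 without AAV-GFP replicate 2. Basp1 had a negative slope on Hba-a2 in the AAV experiment, at -0.22 (SE 0.055), and Socs3 a positive one, at 0.39 (SE 0.129).

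No member's slope on a blood gene passed over all genes. For Ngp in the AAV experiment 7 of 9 slopes were positive, beside 44.8% of all genes, and 3 members had an unadjusted p under 0.05, beside 3.97% of genes. None passed the adjusted threshold, as 0% of genes did. For Hba-a2 in that experiment 6 of 9 were positive, beside 45.9% of genes, 4 members had an unadjusted p under 0.05, beside 8.73%, and 0 passed, beside 0.0379%. With ribose 6 of 9 slopes on Ngp were positive, beside 52.8% of genes, 1 had an unadjusted p under 0.05, beside 1.88%, and 0 passed, beside 0%. On Hba-a2 7 of 9 were positive, beside 50.4% of genes, again 1 had an unadjusted p under 0.05, beside 3.06%, and 0 passed, beside 0.00724%.

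In the same fits the group difference of the AAV experiment was less certain, since Ngp itself differs between the groups. With Ngp as a covariate Anxa1 stood at 0.69 (SE 0.837), Sprr1a at 1.82 (SE 1.128), Gadd45a at 0.79 (SE 0.317) and Socs3 at 0.09 (SE 0.893), each turned in sign from the plain comparison. Plaur kept its sign at -0.43 (SE 0.432), as did Flrt3 at -0.13 (SE 0.353) and Hspb1 at 0.76 (SE 0.337). Gap43 and Basp1 turned to -0.11 and -0.58. With Hba-a2 as a covariate Plaur stood at -0.78 (SE 0.201), Anxa1 at -0.96 (SE 0.509), Flrt3 at -0.34 (SE 0.155) and Hspb1 at 0.48 (SE 0.141). Sprr1a, Gadd45a and Socs3 turned to 0.14, 0.10 and 0.28, and Gap43 and Basp1 to -0.02 and -0.34. Group and blood content cannot be told apart in the AAV experiment, because every neutrophil marker listed was lower in every AAV-TKT library.

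Libraries numbered 2 stood apart for several members. Socs3 was lowest in replicate 2 in all 4 groups, as were 4.86% of the 12853 genes tested in both experiments, and Flrt3, Hspb1 and Sprr1a in 3 of 4 groups, as were 11.6% of genes. The libraries numbered 2 were also low in satellite glia, the cells that wrap each sensory neuron. The summed level of 7 satellite glia markers (Fabp7, Kcnj10, Glul, Apoe, Slc1a3, Cadm2 and Gja1) was 1246, 955 and 1085 FPKM in AAV-GFP and 1103, 660 and 1006 FPKM in AAV-TKT. It was 1123, 636 and 1475 FPKM in Vehicle and 914, 282 and 798 FPKM in Ribose. Replicate 2 had the lowest sum in every group, by a wide margin in AAV-TKT, Vehicle and Ribose.

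Socs3 took the same order of libraries as this glial sum in 4 of 4 groups, which held for 122 of 12837 genes (0.950%). Sprr1a, Flrt3 and Hspb1 took it in 3 of 4 groups (3.49%). The marker list was chosen with earlier results of these data known, and Socs3 shared the lowest library of the sum in all 4 groups. As 620 of 12837 genes (4.83%) shared that lowest library, the 122 genes are better read against these 620 than against all genes. The slope of Socs3 on the sum, a fit added after these values were seen, was 0.82 (SE 0.115) with ribose. It was the only member slope past the threshold, at a limma adjusted p of 0.0392, beside 0.689% of all genes. Leaving out any single library kept the slope between 0.73 and 1.07 and ended the call, with 0 members past the threshold each time. With AAV the slope of Socs3 was 1.00 (SE 0.256, unadjusted p = 0.0069, limma adjusted p = 0.427), with 0 members and 0% of genes past the threshold and 1 of 9 members and 7.86% of genes under an unadjusted p of 0.05. With ribose 7 of 9 members had positive slopes on the sum, beside 48.9% of genes, and 5 of 9 had an unadjusted p under 0.05, beside 17.7% of genes. These were Socs3, Sprr1a (1.14, SE 0.356), Hspb1 (0.40, SE 0.094), Flrt3 (0.35, SE 0.102) and, with a negative slope, Basp1 (-0.30, SE 0.091). With AAV 4 of 9 were positive, beside 46.7% of genes. The part of satellite glia in the level of Socs3 was not tested.

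**Figure D3:**
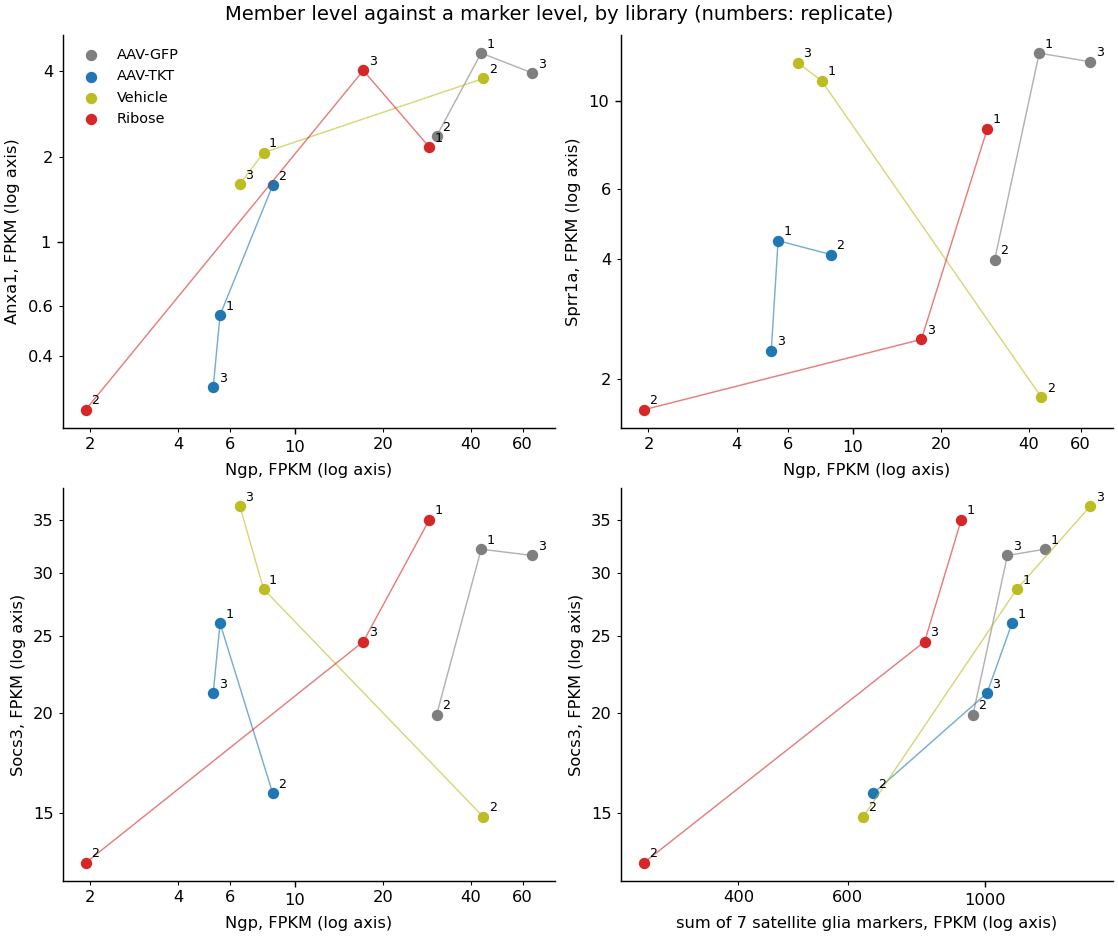
Level of Anxa1, Sprr1a and Socs3 against Ngp, and of Socs3 against the sum of 7 satellite glia markers, in each library (FPKM, both axes logarithmic, numbers for replicates), with lines joining the libraries of a group in order of the marker. Lines of Socs3 run upward with the glial sum in all 4 groups, whereas those of Sprr1a and Socs3 against Ngp run downward in Vehicle.

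**Figure D4:**
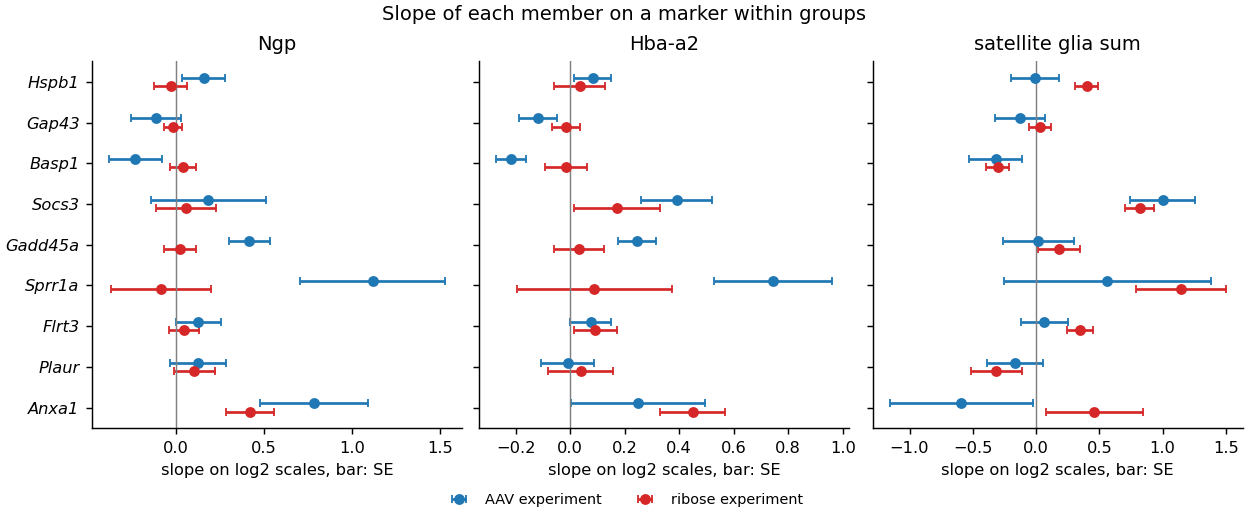
Slope of each member on Ngp, on Hba-a2 and on the satellite glia sum within groups (horizontal axes, log2 FPKM per log2 FPKM), with the standard error as bars, in blue for the AAV and in red for the ribose experiment. Anxa1 lies above 0 on Ngp in both experiments, and Socs3 stands at 1.00 and 0.82 on the glial sum.

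The AAV difference minus the ribose difference was tested in 1 limma fit of all 12 libraries. No member passed (0 of 9, beside 0.00778% of 12853 genes), and 1 had an unadjusted p under 0.05, beside 6.85% of genes. Plaur had the smallest p, with -0.72 (SE 0.326, unadjusted p = 0.049, limma adjusted p = 0.726). Anxa1 stood at -1.07 (SE 0.643, adjusted p = 0.805), Hspb1 at 0.36 (SE 0.266) and Flrt3 at -0.34 (SE 0.236). The other members were Sprr1a at -0.33 (SE 0.901), Socs3 at -0.24 (SE 0.525), Gap43 at 0.21 (SE 0.158), Gadd45a at -0.08 (SE 0.278) and Basp1 at 0.04 (SE 0.237). A member that was apart with transketolase and overlapping with ribose was thus not shown to respond differently to the 2 treatments.

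The transcription factors that drive such effectors were described beside them. All 14 were negative in the AAV experiment, with a median of -0.13 beside 0.01 over all genes, and none passed the test. Of these 14, 2 lay lower in every AAV-TKT library, beside 7.2% of all genes. For this and the other lists, the share of negative genes over all genes was not computed. Atf3, the factor most strongly tied to axon injury, measured 17.2, 11.7 and 17.1 FPKM in AAV-GFP and 12.4, 9.74 and 8.20 FPKM in AAV-TKT, with overlap (difference -0.55, SE 0.183, limma adjusted p = 0.412). With Ngp as a covariate the difference of Atf3 turned to 0.36. Replicate 2 was the lowest AAV-GFP library, as it was for Sprr1a, Gadd45a and Socs3. Cebpd, another of these factors, differed by -0.42 (SE 0.199) in the AAV experiment. With ribose 7 of the 14 factors were positive and 7 negative, and none passed. Creb1 (0.26, SE 0.202) and Smad1 (-0.19, SE 0.187) had the smallest p there. Of 23 other effectors measured in the AAV experiment 20 were negative, with a median of -0.14, and none passed. Of these 23, 7 lay lower in every AAV-TKT library and 1 higher, beside 7.2% and 11.3% of all genes. Nts, a neuropeptide, measured 13.0, 8.30 and 9.50 FPKM in AAV-GFP and 3.74, 5.33 and 3.81 FPKM in AAV-TKT (difference -1.08, limma adjusted p = 0.234). It was also lower in every Ribose library, at 8.07, 4.47 and 9.70 FPKM in Vehicle and 2.29, 1.86 and 3.13 FPKM in Ribose (difference -1.26, limma adjusted p = 0.766). Sdc1, a surface proteoglycan, differed by -0.32 (SE 0.078) in the AAV experiment without overlap, and galanin (Gal), a neuropeptide of injured neurons, by 0.66 (SE 0.310) with ribose, where Vehicle replicate 2 lay above the Ribose libraries. With ribose 17 of 22 other effectors were negative, with a median of -0.11 beside -0.02 over all genes, and none passed. Of these 22, 2 lay lower in every Ribose library and 0 higher, beside 5.35% and 4.28% of all genes.

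The genes most like each member across the 6 AAV libraries are given as a description, by Pearson's r of log2(FPKM + 1). Anxa1 was followed most closely by Hist1h2ah (0.984), Nts (0.974) and Rrm2 (0.973), and Socs3 by P2rx7 (0.989), Sash1 (0.986) and Jun (0.985). For Sprr1a the genes were Hist1h4a (0.993), Oaf (0.984) and Smg5 (0.979), and for Gadd45a Hist1h4f (0.993), Rps6ka1 (0.986) and Pfkfb3 (0.985). The histone genes have near-identical copies among which reads can be split, so their values are uncertain. Plaur was nearest to Cldn34c1 (0.982), Plk2 (0.981) and Sf3a2 (0.980), Flrt3 to Rsrp1 (0.994), Otud1 (0.994) and Myd88 (0.993), and Hspb1 to Acss2 (0.997), Plbd2 (0.997) and Ndufc2 (0.996). Among the genes nearest to Gap43 were Adprh (0.993) and Ubap1 (0.992), and Basp1 was nearest to Zfp91 (0.994), Dym (0.994) and Atrnl1 (0.993). These points share the 6 libraries and their group difference, and were picked as the highest among all genes of the table.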

How the data were processed

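Polyadenylated RNA from a column kit for small samples was made into directional libraries, per the labels' protocols. Per the submitters' processing notes, reads passed bcl2fastq 2.20, FastQC and Trim Galore, and the build was GRCm38. The sources used here do not give the aligner, the counter, the annotation or the normalization. The authors deposited FPKM values as 1 table per experiment, and levels were tested only within a table. The control columns of the ribose table carry an abbreviation for control and were matched to the Vehicle samples. Identifiers were given symbols from GENCODE M21 (13170 of 13178 and 21612 of 21650 matched).

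Differences were tested with limma 3.58.1 (R 4.3.3) on log2(FPKM + 1) with an intensity trend, over genes averaging 1 FPKM or more, at a Benjamini-Hochberg threshold of 0.05, and the fits were tested on simulated data. The members, partner lists and marker lists were chosen with earlier results of these data known. Named were all members, Tkt, Ngp, Hba-a2, the 2 genes with the smallest p of each partner list and experiment, and the 3 genes most like each member, leaving out provisional names. A gene that this rule names is not reported here. Alternatives were pseudocounts of 0.1 and 0.5, filters, scalings, weights, a robust prior, blood covariates, the replicate number as a block and each library left out. The satellite glia fit and the omission of both libraries numbered 2 were added after seeing the data. Same-numbered libraries did not deviate together in every pair, so the numbers were not taken to pair samples.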

Additional observations from a re-analysis of the deposited data

How the results depend on the processing

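In the AAV experiment the count of genes past the threshold, 2 as reported, became 5 with a pseudocount of 0.1, 4 with a mean of at least 5 FPKM, 4 with equal totals, 0 with the replicate block, 23 with weights per library, 0 with Ngp and 6 with Hba-a2 as a covariate, 36 without both libraries numbered 2, and 1 to 40 without single libraries (40 without AAV-GFP replicate 2). Members past it, 0 as reported, became 1 with weights per library (Plaur) and 1 without both libraries numbered 2 (Anxa1), and Nts passed with weights in the same experiment (limma adjusted p = 0.0374). With ribose the 1 gene became 2 with a pseudocount of 0.5, 2 with equal totals, 3 without both libraries numbered 2 and 1 to 4 without single libraries (4 without Ribose replicate 2). The replicate block changed no member's call. Deviations of same-numbered libraries correlated at 0.03, 0.07 and -0.01 in the AAV and at 0.04, 0.36 and 0.16 in the ribose experiment. The call of Socs3 on the satellite glia sum with ribose (1 member) was 0 without each single library.

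Plaur, Flrt3 and Hspb1 kept their sign under every alternative run in the AAV experiment. Those that turned were as follows. With equal totals the AAV difference of Basp1 was -0.042, of Csrp1 -0.027 and of Csrp2 -0.047, and with quantile normalization that of Basp1 was -0.037. Csrp2 was -0.0079 with median-of-ratios scaling and -0.0048 without both libraries numbered 2, and Csrp1 -0.091 with weights. With Ngp as a covariate Basp1 was -0.58, Gap43 -0.11, Csrp1 -0.14, Csrp2 -0.16, Hspb6 -0.18, Sprr1a 1.82, Anxa1 0.69, Gadd45a 0.79, Socs3 0.093, Atf3 0.36, Mmp9 0.41, Anxa3 0.69, S100a4 0.52, Cdkn1a 0.64 and Socs6 0.053. With Hba-a2 they were -0.34 for Basp1, -0.020 for Gap43, 0.14 for Sprr1a, 0.10 for Gadd45a, 0.28 for Socs3, 0.29 for S100a4, 0.0085 for Cdkn1a and 0.10 for Cebpd. Without single libraries Basp1 ranged from -0.070 to 0.15, Csrp1 from -0.059 to 0.13 and Csrp2 from -0.13 to 0.20.

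With ribose, equal totals turned Basp1 to 0.00024, quantile normalization Basp1 to 0.074, Gap43 to 0.063 and Hspb1 to 0.052, weights Basp1 to 0.069 and Plaur to 0.098, and the omission of both libraries numbered 2 Basp1 to 0.079, Plaur to 0.14 and Anxa1 to 0.49. Single omissions gave -0.17 to 0.18 for Basp1, -0.12 to 0.070 for Gap43, -0.25 to 0.18 for Hspb1, -0.32 to 0.21 for Plaur, -0.75 to 0.24 for Anxa1, -0.25 to 0.058 for Flrt3 and -0.51 to 0.22 for Socs3. For the AAV minus the ribose difference Basp1 was -0.042 with equal totals, -0.11 with quantile normalization and -0.0077 with weights. Single omissions there gave -0.15 to 0.19 for Basp1, -0.82 to 0.40 for Sprr1a, -0.26 to 0.16 for Gadd45a and -0.61 to 0.12 for Socs3.

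Slopes without single libraries ranged in the AAV experiment from -1.0 to 0.82 (Sprr1a on Hba-a2), -1.80 to 0.34 (Anxa1 on Hba-a2), and on the glial sum from -0.19 to 4.03 (Sprr1a), -0.026 to 0.15 (Flrt3) and -0.12 to 0.63 (Hspb1, which was 0.0060 with equal totals and 0.017 with median-of-ratios scaling). With ribose they ranged from -0.72 to 0.44 (Sprr1a on Ngp), -0.095 to 0.096 (Gadd45a on Ngp), -1.24 to 0.33 (Sprr1a on Hba-a2), -0.078 to 0.40 (Basp1), -0.091 to 0.10 (Gadd45a) and -0.65 to 0.31 (Socs3, all on Hba-a2). The cause of these turns was not tested. Without stated depth in the AAV experiment, the precision of low values such as those of Anxa1 is unknown.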
